A study of Mus musculus with 12 samples.

Results

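RNA polymerase II (Pol II) occupancy was examined at Dmbt1, Ndrg1, Areg, Tm4sf4 and Sgk1 in epithelium of the mouse duodenum. These 5 of 6429 genes were picked because the authors' deposited comparison gave them a higher signal in villi labelled as HNF4 double knockout (DKO) than in wild-type (WT) villi. All 5 were present in both deposited tables of comparisons, and all 5 had windows in both deposited window tables. The assay was ChIP-seq, which sequences the DNA recovered with an antibody to Pol II. The labels list 3 Pol II libraries from villi of WT mice given the oil vehicle, 3 from crypts of WT mice given the same vehicle, and 3 from villi of mice of genotype Hnf4{alpha}{gamma} DKO given tamoxifen. A single input library stands beside each of these groups. Tamoxifen was injected at 50 mg/kg on each of 2 days, and tissue was taken 1 day after the last injection. Epithelium was released with 3 mM EDTA for 35 minutes from WT and for 25 minutes from mutant tissue, and a 70 um filter held villi back while crypts passed. Genotype, drug and EDTA time therefore cannot be told apart in the comparison of villi. The labels call the cells adult and give no strain, age in weeks, Cre driver or promoter. They do not say whether libraries came from separate animals, so errors may measure technical spread.

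HNF4A and HNF4G are paralogous nuclear receptors that bind DNA in enterocytes, the absorptive cells of the villus, and are known for activating genes of fat absorption and digestion there. The 5 genes have no common molecular role. Dmbt1 encodes a large secreted scavenger receptor of mucosal surfaces that binds bacteria. Areg encodes amphiregulin, a membrane-anchored ligand that is shed to activate the epidermal growth factor receptor (EGFR). Tm4sf4 encodes a membrane protein with 4 membrane-spanning stretches, of the L6 family. Sgk1 encodes a serine/threonine kinase induced by serum and glucocorticoids, known for raising epithelial sodium transport. Ndrg1 encodes a cytoplasmic protein induced by hypoxia and by differentiation, and it is a substrate of the SGK1 kinase.

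The promoters of 3 of the 5 genes were found in the RefSeq promoter table (build GRCm38.p6, 250 bases before to 50 bases after each start), 1 each for Areg and Tm4sf4 and 6 for Sgk1. The Areg and Tm4sf4 promoters and 3 of the Sgk1 promoters are shown because they hold core promoter or response element letters. All are on the plus strand, and capitals mark matches of the searched motifs.
Areg, chr5:91139349-91139648: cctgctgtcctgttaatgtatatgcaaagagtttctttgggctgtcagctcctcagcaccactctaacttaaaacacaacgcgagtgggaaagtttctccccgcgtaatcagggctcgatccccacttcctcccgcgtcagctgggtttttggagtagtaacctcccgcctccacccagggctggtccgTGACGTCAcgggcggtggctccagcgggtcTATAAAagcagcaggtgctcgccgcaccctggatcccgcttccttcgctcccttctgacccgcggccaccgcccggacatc
Tm4sf4, chr3:57425160-57425459: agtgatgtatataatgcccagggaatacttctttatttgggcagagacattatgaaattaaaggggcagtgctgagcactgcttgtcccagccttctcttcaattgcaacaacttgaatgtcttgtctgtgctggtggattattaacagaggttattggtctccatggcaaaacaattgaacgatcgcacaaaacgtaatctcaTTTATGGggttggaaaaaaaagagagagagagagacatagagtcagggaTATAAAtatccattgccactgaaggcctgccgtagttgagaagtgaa
Sgk1 NM_001161849, chr10:21991973-21992272: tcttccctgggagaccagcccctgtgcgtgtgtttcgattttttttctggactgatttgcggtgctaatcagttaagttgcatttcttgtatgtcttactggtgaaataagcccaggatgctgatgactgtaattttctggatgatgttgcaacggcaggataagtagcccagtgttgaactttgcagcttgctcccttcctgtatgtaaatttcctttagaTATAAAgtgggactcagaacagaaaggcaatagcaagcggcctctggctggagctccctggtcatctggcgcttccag
Sgk1 NM_001161850, chr10:21993640-21993939: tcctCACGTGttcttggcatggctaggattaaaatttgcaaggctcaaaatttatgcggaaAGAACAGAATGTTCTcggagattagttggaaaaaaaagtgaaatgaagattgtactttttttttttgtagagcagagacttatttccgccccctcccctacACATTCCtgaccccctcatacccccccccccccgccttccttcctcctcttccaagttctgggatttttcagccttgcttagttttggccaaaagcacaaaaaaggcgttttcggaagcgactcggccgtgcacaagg
Sgk1 NM_011361, chr10:21994416-21994715: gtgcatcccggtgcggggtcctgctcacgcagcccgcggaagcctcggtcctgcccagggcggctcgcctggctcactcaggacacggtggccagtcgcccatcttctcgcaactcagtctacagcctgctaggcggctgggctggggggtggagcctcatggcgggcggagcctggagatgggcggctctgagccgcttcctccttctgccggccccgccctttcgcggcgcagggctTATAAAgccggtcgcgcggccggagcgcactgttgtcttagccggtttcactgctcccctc

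Both strands were searched for the TATA box as TATAAA, the cAMP response element as TGACGTCA and the AP-1 site as TGANTCA. The HNF4 site was searched as CAAAGTCCA or CAAAGGTCA, the hypoxia response core as ACGTG and the glucocorticoid response element as its full palindrome with a spacer of any bases. The TEAD site was searched as ACATTCC, a site of GATA factors as AGATAAG, and a site of CDX factors as TTTATGG. The 6 starts of Sgk1 are spaced identically in RefSeq and in the authors' windows, which paired each promoter with a transcript. In the Areg promoter TATAAA began 31 bases before the start and TGACGTCA 61 bases before it. TGACGTCA was present in 1.79% of 32851 mouse promoters of the same length. A TATAAA on the gene's strand that began 40 to 15 bases before the start was present in 2.11% of promoters, and in the Areg promoter and the Sgk1 NM_001161849 promoter, where it began 28 bases before the start. In the Sgk1 NM_011361 promoter it began 11 bases before the annotated start, and in Tm4sf4 it began at base 4 after it. Tm4sf4 also held TTTATGG 46 bases before the start, letters found in 2.75% of promoters. The Sgk1 NM_001161850 promoter held the full glucocorticoid response palindrome 189 bases before the start, which 3 of the 32851 promoters held. It also held ACATTCC 88 bases before the start and a palindromic CACGTG, read as ACGTG on each strand, near its far end. ACATTCC and ACGTG were in 3.85% and 19.6% of promoters. Apart from that palindrome no matches overlapped in these promoters. AGATAAG (3.04% of promoters) matched in the Sgk1 NM_001161848 promoter, which is not shown, 204 bases before the start. The HNF4 letters (0.95%) and TGANTCA (7.81%) matched in none of the 8 promoters, which says only that these letters are absent from these windows. The Areg and Sgk1 NM_011361 promoters were rich in the dinucleotide CG, with observed over expected ratios of 0.819 and 0.77 against a median of 0.384 over all promoters. The Tm4sf4 promoter had a ratio of 0.324.

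In the authors' window tables, whose build is mm9, the windows of Dmbt1 spanned chromosome 7 from 138175483 to 138264642 on the plus strand, in 2 transcripts with identical windows. Ndrg1 lay on chromosome 15 from 66760380 to 66801553 on the minus strand, and its gene body window of 41174 bp contained its 402 bp promoter window. Areg lay on chromosome 5 from 91568525 to 91576958, Tm4sf4 on chromosome 3 from 57229232 to 57245097 and Sgk1 on chromosome 10 from 21601890 to 21719208, each on the plus strand. The gene body windows of the 5 genes thus ran from 7984 bp for Areg to 116869 bp for the longest of 6 Sgk1 transcripts, against a median of 12040 bp for the longest window per gene over 6390 tested genes. The shortest Sgk1 window, that of NM_011361, was 4387 bp, and all 6 Sgk1 body windows ended at the same base. Since a read pair was assigned to every window it overlapped, reads near that end counted for all 6 transcripts. No window of the 5 genes overlapped a window of another gene.

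The values below are those of the authors' deposited tables in the DESeq2 results format. The mean Pol II signal averages the libraries' counts after scaling by size factors. Group levels were rebuilt from it and from the deposited fold changes, taking the 3 groups as equal in size. Values per library were not analysed here, because no count column could be matched to a sample by name. Standard errors (SE) follow ±, and a gene was called when its DESeq2 adjusted p was under 0.05. The targeted genes were checked first. Hnf4a had a log2 ratio of WT to labelled-DKO villus of -0.54 ± 0.14 in the authors' deposited table (adjusted p 4.84e-04), and Hnf4g one of -1.45 ± 0.22 (adjusted p 7.81e-10). The windows of Hnf4a overlap those of Hnf4aos, an antisense gene. Hnf4aos itself was higher in WT villus, at 0.65 ± 0.09 in the authors' deposited table (DESeq2 adjusted p 2.31e-12). The signal at both targeted genes was thus higher in the libraries labelled DKO, and directions between genotypes rest on those labels and on the table's name. The deleted part of either gene and the window counted are not given in the sources used here, so this does not check the deletion. Of 17 enterocyte markers tested, the authors' deposited tables called 17 lower in the labelled-DKO villi than in WT villi, and 17 higher in villus than in crypt of WT mice. The defining crypt stem markers Lgr5, Olfm4, Ascl2 and Smoc2 were not among the genes tested.

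Pol II signal in the labelled-DKO villi was higher than in WT villi at all 5 genes, which is the property they were chosen by, and these values are given as a description. Dmbt1, the mucosal scavenger receptor gene, rebuilt to a mean level of 632 normalised counts in WT villus, 2369 in WT crypt and 9051 in labelled-DKO villus. Its log2 ratio of WT to labelled-DKO villus was -3.84 ± 0.32 in the authors' deposited table, or 14.3-fold more signal in the labelled-DKO villi. Dmbt1 also had the second highest mean signal of the 6429 genes, at 4017. Most of that mean came from 1 group, since the labelled-DKO villi held 75.1% of the summed level over the 3 groups.

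Ndrg1, the hypoxia-inducible gene, rebuilt to 288 in WT villus, 297 in WT crypt and 2387 in labelled-DKO villus. Its log2 ratio of WT to labelled-DKO villus was -3.05 ± 0.30 in the authors' deposited table, or 8.28-fold higher in labelled-DKO villus. Areg, the EGFR ligand gene, rebuilt to 86.4 in WT villus, 66.4 in WT crypt and 701 in labelled-DKO villus. The deposited table gave it a log2 fold change of -3.02 ± 0.60, 8.11-fold higher in labelled-DKO villus. Ndrg1 and Areg thus changed by nearly the same factor, although the signal of Ndrg1 was higher in each group. Such levels are not per length and do not rank the genes by density.

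Tm4sf4, the L6 family gene, rebuilt to 219 in WT villus, 121 in WT crypt and 1345 in labelled-DKO villus. Its log2 ratio of WT to labelled-DKO villus was -2.62 ± 0.17 in the authors' deposited table, 6.15-fold higher in labelled-DKO villus, and its SE was the smallest of the 5 genes. Sgk1, the kinase gene, rebuilt to 199 in WT villus, 123 in WT crypt and 606 in labelled-DKO villus. Its deposited log2 fold change was -1.61 ± 0.48, 3.04-fold higher in labelled-DKO villus, the smallest change of the 5. Across the 5 genes the labelled-DKO villi held from 65.3% (Sgk1) to 82.1% (Areg) of the summed level. All 5 were called in this comparison, in which 51.9% of the 6429 genes were called and 29.5% were called higher in labelled-DKO villus. Since the comparison chose the genes, nothing is read from that count.

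**Figure D1:**
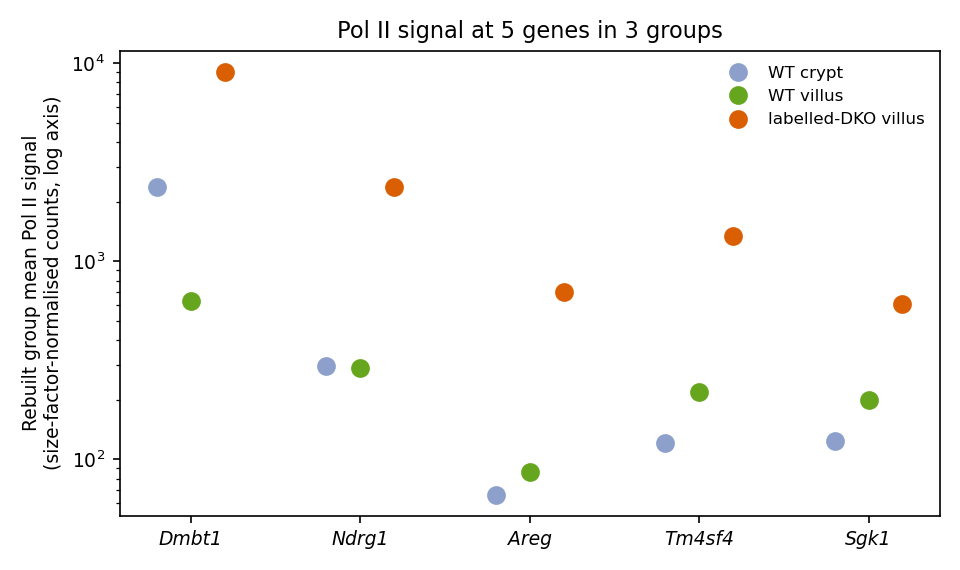
Rebuilt group mean Pol II signal at the 5 genes, in size-factor-normalised counts on a log axis; each point is 1 group, with no error drawn because the levels are rebuilt from group comparisons. The labelled-DKO point is the highest for each gene, from 606 at Sgk1 to 9051 at Dmbt1, and Dmbt1 has crypt above villus among the WT groups.

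The genes were not the 5 largest gains. Among the 3215 genes whose mean signal was not below the median of 144.5, Dmbt1, Ndrg1, Areg and Tm4sf4 ranked 1 to 4 by gain and Sgk1 ranked 21. That mean includes the labelled-DKO villi, and Areg lay below 144.5 in both WT groups, at 86.4 in villus and 66.4 in crypt. Without the limit on signal the same 4 genes also ranked 1 to 4. The ranking is by the change that chose the genes and is a description. The next gene after Tm4sf4 was Gp1bb, with a log2 ratio of WT to labelled-DKO villus of -2.28 ± 0.60 in the authors' deposited table. Gp1bb, a platelet glycoprotein gene, and Septin5, at -1.98 ± 0.53, have windows that overlap each other, so the same reads can count for both. Between these lay Glul, the glutamine synthetase gene, at -2.27 ± 0.23 and Tspan8, a tetraspanin gene, at -2.14 ± 0.28, and Gcnt3, a mucin glycan-branching enzyme gene, at -2.07 ± 0.23. Around Sgk1 stood Klf10 at -1.61 ± 0.19 and Plscr1 at -1.60 ± 0.27. The windows of Glul and Plscr1 each overlap those of a microRNA gene. Over all signals, 29 genes had a larger gain than Sgk1. All 29 were called in the authors' deposited table.

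In WT tissue Dmbt1 carried more Pol II in crypt and Tm4sf4 more in villus, and the other 3 genes did not pass the test. This comparison was not used to choose them, but it shares the WT villus libraries, and a choice of genes low in WT villus favours genes higher in crypt. Each gene also had the same mean signal in both deposited comparisons, so these may come from a shared fit over all libraries. If so, SEs and intervals between villus and crypt also carry spread among the labelled-DKO libraries. The authors' deposited villus-crypt table called 37.4% of genes, 18.6% higher in villus and 18.8% higher in crypt. Of the 5 genes, 2 were called, 1 in each direction, a share close to that of all genes.

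Dmbt1 was higher in crypt, with a log2 fold change of villus over crypt of -1.91 ± 0.32 in the authors' deposited table (DESeq2 adjusted p 3.79e-08). The signal in crypt was 3.75-fold that in villus, and no other of the 6429 genes of that table had a change further toward crypt. Tm4sf4 was higher in villus, at 0.85 ± 0.18 (DESeq2 adjusted p 1.86e-05 in the authors' deposited table), or 1.80-fold. Its rank was 333 of 6429 from the villus-high end. When changes of up to 0.5 in log2 were taken as no change, Dmbt1 still passed and Tm4sf4 did not, with an adjusted p of 0.352.

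The other 3 genes did not pass. Ndrg1 had a log2 fold change of villus over crypt of -0.04 ± 0.30 in the authors' deposited table (adjusted p 0.932), and its 95% interval ran from a villus over crypt ratio of 0.645 to one of 1.46. For Areg the change was 0.38 ± 0.60 (adjusted p 0.662 in the authors' deposited table), with an interval from 0.575 to 2.94. For Sgk1 it was 0.69 ± 0.48 (adjusted p 0.259 in the authors' deposited table), with an interval from 0.846 to 3.09. The intervals of Areg and Sgk1 include a ratio of 1 as well as the 1.80 measured at Tm4sf4, so these data do not tell whether those 2 genes differ along the axis. The interval of Ndrg1 ends below 1.80 but overlaps that of Tm4sf4, which ran from 1.41 to 2.30. A difference between Ndrg1 and Tm4sf4 was not tested.

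The labelled-DKO villi also stood above WT crypt at each gene. Subtracting one deposited log2 ratio from the other gave labelled-DKO villus over crypt as 3.47 for Tm4sf4, 3.40 for Areg, 3.01 for Ndrg1, 2.30 for Sgk1 and 1.93 for Dmbt1. If library errors are independent, the SE of these differences is at most 0.25, 0.85, 0.43, 0.67 and 0.45. Dmbt1, which led against WT villus, thus had the lowest of these estimates. With SEs near those limits, the order among Tm4sf4, Areg and Ndrg1 is not resolved, nor is that between Sgk1 and Dmbt1. Dmbt1 was 3.82-fold above crypt and 14.3-fold above WT villus, whereas Tm4sf4 was 11.1-fold above crypt and 6.15-fold above WT villus. Both sets of differences share the labelled-DKO libraries that chose the genes and are a description.

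**Figure D2:**
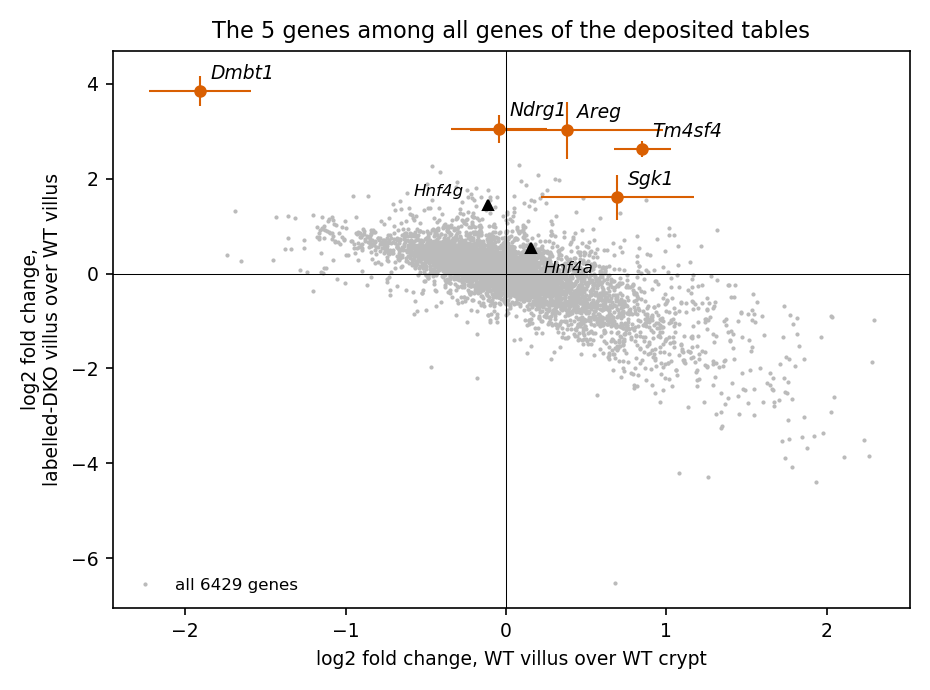
Log2 fold change of WT villus over WT crypt (x axis) against that of labelled-DKO villus over WT villus (y axis) for all 6429 genes in grey, the 5 genes in orange with bars of ± SE, and Hnf4a and Hnf4g as black triangles. Both axes use the WT villus libraries. The 5 genes lie above 0 on the y axis, Dmbt1 highest and Sgk1 lowest of the 5, with other genes above Sgk1. Dmbt1 lies at the far left (-1.91) and Tm4sf4 furthest right of the 5 (0.85).

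Markers of cell types also differed between the groups. In a bulk preparation, more cells of a type and more Pol II per cell cannot be told apart. The summed rebuilt level of the 17 enterocyte markers was 24063 in WT villus, 8792 in WT crypt and 6786 in labelled-DKO villus. The summed level of 4 crypt stem markers was 803, 1051 and 993 in the same groups, of which the authors' deposited table called 2 higher in the labelled-DKO villi than in WT villi. That of 2 proliferation markers was 132, 221 and 212, both called higher in labelled-DKO villus. The 8 tested markers of the goblet and Paneth list summed to 3176, 2057 and 3517, with 3 called higher in labelled-DKO villus (Agr2, Spink4 and Clca1) and the other 5 not called. Its Paneth markers Lyz1, Defa24 and Mmp7 were not among the genes tested. The 4 immune markers summed to 402, 285 and 236, with 2 (Cd74 and H2-Aa) called lower in labelled-DKO villus in the authors' deposited table. Those 2 were also called higher in WT villus than crypt. The other 2, Gzma and Gzmb, were not called between the villi (DESeq2 adjusted p 0.328 and 0.724). Of the tuft and enteroendocrine list only the enteroendocrine markers Chga and Sct were tested. These 2 summed to 124.9, 89.1 and 88.7, with Sct called lower in labelled-DKO villus and Chga not called. The 8 mesenchyme markers were not among the genes tested. Of all genes, 29.5% were called higher and 22.4% lower in labelled-DKO villus, and nothing is read from counts of so few markers. The stem and proliferation sums rest on few genes, and Rnf43 alone held 495 of the stem sum of 803 in WT villus. The part of cell composition in the gains was not tested.

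The precision of the fold changes was low for 4 of the 5 genes. The SE of Areg between villus and crypt, 0.60, was above that of all 200 genes nearest to it in mean signal, whose median SE was 0.11. The same held for Sgk1, with 0.48 against a median of 0.11. Dmbt1, with 0.32, exceeded 196 of its 200 nearest genes, and Ndrg1, with 0.30, exceeded 194. Tm4sf4, with 0.18, exceeded 168. Over all genes, the SE of Areg was above that of 6426 of the 6429. The SE of each gene was nearly the same in the comparison of villi, from 0.17 for Tm4sf4 to 0.60 for Areg. The SEs of the 5 genes thus exceeded those of most genes of like mean signal. That mean includes the labelled-DKO libraries, where the 5 genes are high by choice, so the matched genes can have more signal in WT tissue. For Areg they had means of 273 to 300, while its rebuilt levels were 86.4 in WT villus and 66.4 in WT crypt. Which libraries vary was not analysed here.

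**Figure D3:**
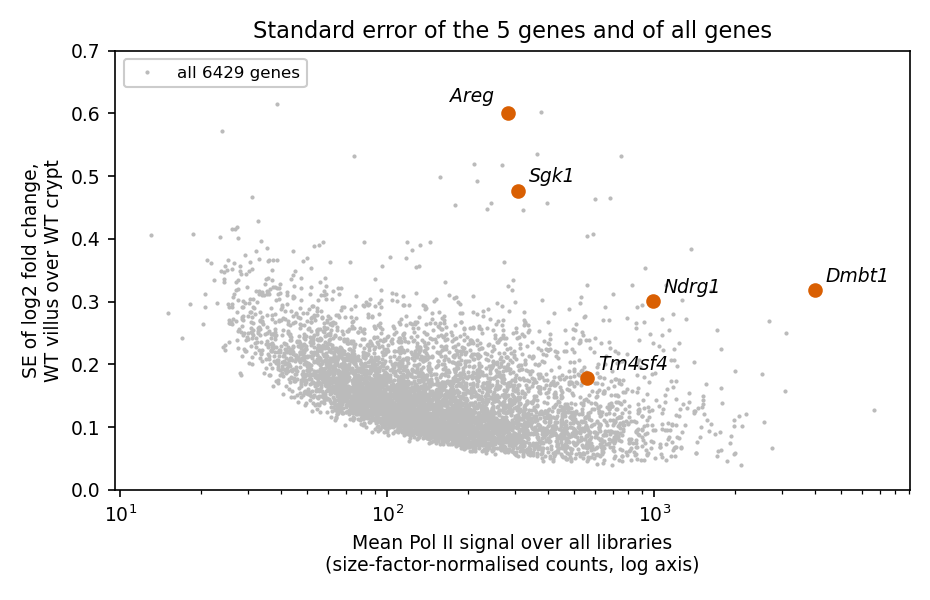
Standard error of the log2 fold change of WT villus over WT crypt against the mean Pol II signal (size-factor-normalised counts, log axis), for all 6429 genes in grey and the 5 genes in orange. Areg (0.60) and Sgk1 (0.48) sit near the top edge, and Tm4sf4 (0.18) is the lowest of the 5.

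The genes around each of the 5 in its pathway or family were then read from lists of 93 other names, of which 45 were among the genes tested. Of the 45 genes, 20 (44.4%) in the authors' deposited table were called higher in WT villus and 12 (26.7%) higher in labelled-DKO villus, against 22.4% and 29.5% of all genes. Their median log2 ratio of WT to labelled-DKO villus was 0.10, and that of all genes was -0.08. The list genes were thus called toward labelled-DKO villus about as often as genes at large.

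For Areg, the list of EGFR ligands, receptors and regulators held 7 other tested genes. Of these, 2 were higher in labelled-DKO villus in the authors' deposited table, Errfi1 at -0.81 ± 0.25 (WT over labelled-DKO, adjusted p 0.00354) and Lrig1 at -0.44 ± 0.09 (adjusted p 1.41e-05). Errfi1 and Lrig1 both encode inhibitors of EGFR family receptors. The receptor genes Erbb3, at 0.45 ± 0.14, and Erbb2, at 0.27 ± 0.10, were lower in labelled-DKO villus (adjusted p 0.00312 and 0.0169 in the authors' deposited table). The windows of these 4 genes overlap those of other genes, and no strand option was used in counting. Hbegf, the other ligand gene tested, had 0.04 ± 0.19 (adjusted p 0.883) between the villi, and was higher in WT villus than crypt at 1.16 ± 0.20 in the authors' deposited table (adjusted p 6.54e-08). The list's median between the villi was 0.02 without Areg.

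For Ndrg1, 9 other genes of the list of hypoxia-responsive and NDRG genes were tested, and none of its paralogs Ndrg2, Ndrg3 and Ndrg4 was among them. By the authors' deposited table, 3 were higher in labelled-DKO villus, 3 lower, and 3 not called, with a median of 0.10. Ddit4, an inhibitor of the growth regulator mTORC1, was higher in labelled-DKO villus at -1.29 ± 0.33 (adjusted p 3.16e-04), a 2.44-fold difference. The oxygen-sensing factor genes Hif1a, at -0.57 ± 0.16, and Epas1, at -0.42 ± 0.09, were also higher in labelled-DKO villus in the authors' deposited table. The other way went Egln3 at 0.98 ± 0.13, Vegfa at 0.63 ± 0.11 and Pfkfb3 at 0.38 ± 0.07. All 3 were called lower in labelled-DKO villus, and higher in WT villus than crypt, in the authors' deposited tables. The 3 genes not called between the villi were Ankrd37, Car9 and Adm (DESeq2 adjusted p 0.672, 0.125 and 0.819).

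For Sgk1, 11 other genes of the list of SGK kinases, regulators and glucocorticoid-responsive genes were tested. By the authors' deposited table, 4 were higher in labelled-DKO villus, 4 were lower and 3 were not called, with a median of -0.13. Its paralog Sgk2 fell, at 0.53 ± 0.08 (adjusted p 1.64e-10). Among glucocorticoid-responsive genes the directions were mixed. Per1, a clock repressor, was higher in labelled-DKO villus at -0.86 ± 0.26 (adjusted p 0.00306) and Klf9, a zinc finger repressor, at -0.49 ± 0.11 in the authors' deposited table (adjusted p 2.11e-05). Tsc22d3, which encodes the glucocorticoid-induced leucine zipper protein, was lower at 1.04 ± 0.22 (adjusted p 1.13e-05). Atp1b1, a sodium pump subunit gene, was lower in labelled-DKO villus at 1.44 ± 0.17, and was higher in WT villus than crypt in the authors' deposited tables. The windows of Klf9 and Atp1b1 overlap those of another gene. Nedd4l, a ubiquitin ligase gene whose product SGK1 phosphorylates, was higher in labelled-DKO villus at -0.15 ± 0.06 (adjusted p 0.0221 in the authors' deposited table), and it was not called after centring on the median of all genes, which left 3 genes of the list higher there.

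For Tm4sf4, the 2 other L6 family genes tested, Tm4sf5 and Tm4sf20, went the other way. Between WT and labelled-DKO villus the authors' deposited table gave Tm4sf5 1.82 ± 0.11 (adjusted p 6.63e-56), a 3.54-fold higher signal in WT villus, and Tm4sf20 1.57 ± 0.19 (adjusted p 4.89e-15), a 2.97-fold higher one. Along the crypt-villus axis the 3 family members were alike in direction, all called higher in villus, at 0.85 ± 0.18 for Tm4sf4, 0.85 ± 0.10 for Tm4sf5 and 0.68 ± 0.19 for Tm4sf20 in the authors' deposited table.

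For Dmbt1, 12 other mucosal defence genes were tested. By the authors' deposited table, 8 were called lower in labelled-DKO villus and 2 higher, with a median of WT over labelled-DKO of 0.59. Among genes with a mean signal of at least 100, 4 were called lower, and both genes called higher, named below, lie under that signal. Ccl25, a chemokine that draws lymphocytes to the small intestine, fell by a factor of 3.49, at 1.80 ± 0.15 (adjusted p 1.19e-30), and its windows overlap another gene's. Reg3b, an antibacterial lectin gene, fell by a factor of 2.87, at 1.52 ± 0.17 in the authors' deposited table (adjusted p 1.12e-18). Reg1, of the same lectin family, was higher in labelled-DKO villus at -1.62 ± 0.35 (adjusted p 1.69e-05), a 3.07-fold difference at a mean signal of 95.2. The second gene of the list called higher there was Cxcl16, at -0.29 ± 0.11 in the authors' deposited table (adjusted p 0.0161). Its windows also overlap another gene's, and it was not called after centring on the median of all genes. In the list of epithelial repair and YAP-responsive genes, 4 were tested. Yap1, a growth-promoting coactivator gene, was higher in labelled-DKO villus at -0.26 ± 0.06 (adjusted p 7.97e-05), and Amotl2, which encodes an inhibitor of YAP, was lower at 0.72 ± 0.14 in the authors' deposited table (adjusted p 3.47e-06).

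**Figure D4:**
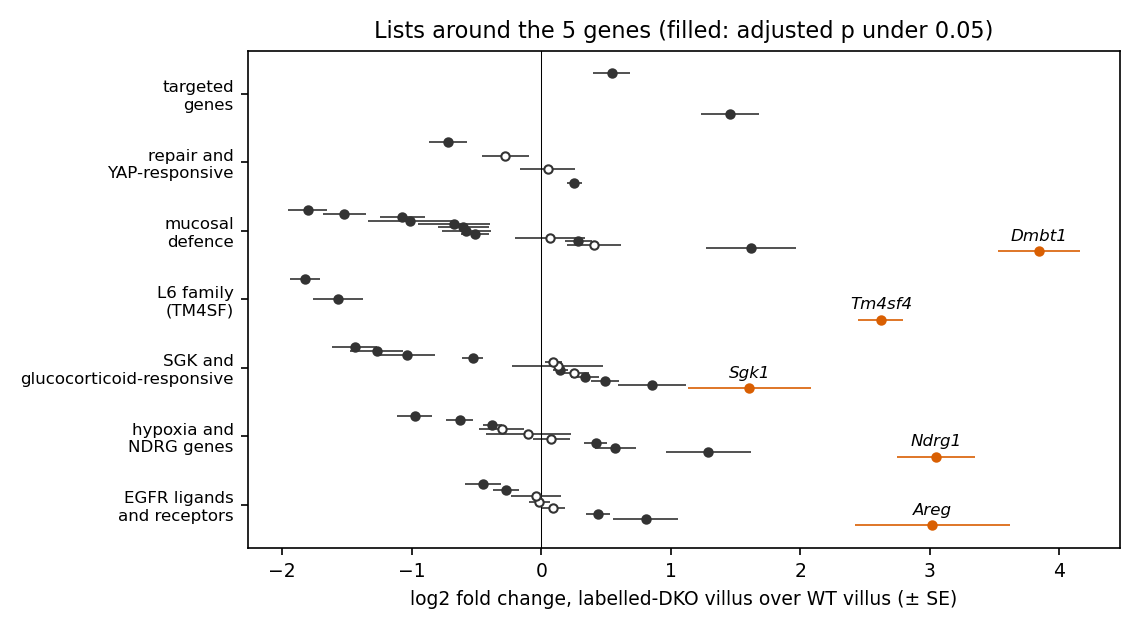
Log2 fold change of labelled-DKO over WT villus (± SE) for the genes of each list, with the 5 genes in orange and other genes in black; filled points had an adjusted p under 0.05. Within each list that holds one of the 5, the orange gene lies furthest right, Tm4sf4 opposite to Tm4sf5 and Tm4sf20, and the other genes fall on both sides of 0.

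Genes with the most similar pair of log2 fold changes were found by Euclidean distance in the plane of both comparisons, over all 6429 genes. One of the axes is the change that chose the 5 genes, so nearness among them is partly built in, and nothing is read from it. Sgk1 had the closest neighbours, Dgat2, the gene of an enzyme of triglyceride synthesis, at a distance of 0.188, Txnip, the thioredoxin-interacting protein gene, at 0.212 and Gprc5a, an orphan receptor gene, at 0.339. The SE of Sgk1 on each axis, 0.48, exceeded each of these distances. The authors' deposited tables gave Dgat2 a log2 ratio of WT to labelled-DKO villus of -1.54 ± 0.53, and of villus to crypt of 0.87 ± 0.53. The windows of Txnip overlap those of the antisense gene Gm15441, which was among the nearest genes of Tm4sf4 at 0.832. Areg and Ndrg1 were each other's nearest gene at 0.423, and Areg was the nearest gene of Tm4sf4 at 0.616. The SE of Areg on each axis, 0.60, is about as large as these distances or larger. Dmbt1 had no close neighbour, its nearest gene being Ndrg1 at 2.025.

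Genes within 250 kb of the windows of the 5 genes were then looked up, a distance chosen after the values of the 5 genes were known. Of 30 such genes 4 were in the deposited tables, and those around Ndrg1 and Tm4sf4 were not. The tabled genes in that range of Dmbt1 were Plekha1, at -0.17 ± 0.11 (WT over labelled-DKO, adjusted p 0.175), and Fam24a, at -0.56 ± 0.24 (adjusted p 0.0365) in the authors' deposited table. Near Areg, Cxcl1 had 0.04 ± 0.36 (adjusted p 0.933), and near Sgk1, E030030I06Rik had 0.65 ± 0.25 (adjusted p 0.0201). None of the 4 changed by more than 0.65 on the log2 scale in either direction. The genes of the EGF family that lie beside Areg, Ereg, Epgn and Btc, were not among the genes tested, so that a gain over the whole cluster was not analysed here.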

How the data were processed

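Per the file headers, the authors ran featureCounts 2.0.3 on Pol II ChIP-seq read pairs of mapping quality 30 or more, ignoring duplicates, with pairs assigned to every window they overlapped and no strand option. The submitters' processing notes name Bowtie2 2.2.6, DESeq2 1.36.0 and build mm9. The 18 deposited count columns carry no names, matched no sample and were not used; window positions and lengths were. The authors deposited 2 DESeq2 comparisons with a mean signal, log2 fold changes with SE, Wald scores, p-values and adjusted p-values; gene filter, size factors and counted window are not given in the sources used here. The Wald scores equalled the log2 fold change over its SE within 1.78e-07, and the adjusted p the Benjamini-Hochberg values over 6429 genes within 3.76e-07. Whether fold changes were shrunken is not known; rebuilt levels take them as unshrunken, and assume a mean over 3 groups of equal size. On simulated counts for 6429 genes, 200 of them changed between labelled-DKO and WT villus, rebuilt levels erred by a median of 0.39% and at most 4.15%. That simulation gave all genes the same spread, lower than the SEs of Dmbt1, Ndrg1, Areg and Sgk1 imply. It also held no change as large as that of Dmbt1, so these errors need not hold for those genes. Alternatives were recomputed in Python 3.11.15 with scipy 1.17.1. Of 44308 promoter and 41048 body windows, 42877 and 40091 transcripts matched a RefSeq symbol. Depth per library is unknown here. Planned edgeR, DESeq2 and pausing tests on counts were not run because they need matched columns. The 5 genes and the lists were chosen with earlier results of these data known. Text names the 5 genes, list genes, the 3 nearest genes in both changes, the next 5 genes by gain, and neighbours; 1 list gene is not reported here by name.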

Additional observations from a re-analysis of the deposited data

How the results depend on the processing

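Of the 5 genes, the 2 called between villus and crypt stayed 2 with an adjusted p under 0.01 and after centring, and became 1 (Dmbt1) against changes up to 0.5 and 1 with a log2 change beyond 1. Between the villi 5 stayed 5, except 4 against changes up to 0.5, where Sgk1 had an adjusted p of 0.086. For the 45 list genes, counts moved by more than 1.5 times when a larger change was asked for, which fewer genes can reach. Against changes up to 0.5, 5 in place of 17 were higher in villus than crypt, 1 in place of 4 in crypt, 8 in place of 20 in WT than labelled-DKO villus and 1 in place of 12 in labelled-DKO villus. With a log2 change beyond 1 these were 5, 0, 9 and 2. Without genes whose windows overlap another gene's, 2 were higher in crypt than villus. Centring moved each difference of labelled-DKO villus over crypt by less than its SE. Among the 5 genes no direction reversed under these settings. Single list genes were not followed for direction. For the mucosal defence list a mean signal of at least 100 left 4 in place of 8 genes lower in labelled-DKO villus. No paired analysis was possible because the comparisons come without library values, and count columns have neither sample names nor replicate numbers; leaving out replicates, other tools, other size factors and low-count filters were not run for the same reason.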

Other observations

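Gene body windows differed in construction between strands. For 21190 of 21190 minus-strand transcripts with both windows, the gene body window contained the promoter window, and for 19858 plus-strand transcripts the 2 windows overlapped in 0. Among the 5 genes this concerns Ndrg1, the gene on the minus strand, whose body window from 66760380 to 66801553 contains its promoter window from 66800902 to 66801303 on chromosome 15. Whether the deposited comparisons counted these windows is not given in the sources used here.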
